A study of Mus musculus with 2 samples.

Results

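The genes described here are the 37 mouse genes encoded by mitochondrial DNA, taken as every row of the deposited gene tables whose Ensembl gene ID maps to a symbol starting with mt-, out of 43346 rows with an Ensembl gene ID. They comprise 2 rRNA genes, 22 tRNA genes and 13 protein-coding genes, and the rule used no measured value. Total RNA was sequenced from midbrain of embryos of the mouse strain B6NCrl at 15.5 days of development, with both sexes pooled and no treatment or mutation named in the labels. Replicate 1 was a pool of 78 embryos and replicate 2 a pool of 62 embryos, each sequenced as 1 library from 10 ng of RNA longer than 200 nt with spike-in RNA added. The labels name 1 source tissue and 1 age, so no contrast between conditions exists, and values are compared between genes and between the pools.

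The mitochondrial genome is a small circle that is copied into RNA along most of its length from both strands. The long precursors are cut mainly at the tRNAs that lie between the other genes, which releases the rRNAs of the mitochondrial ribosome and the mRNAs of subunits of respiratory complexes I, III, IV and V. Nuclear chromosomes carry inserted pieces of mitochondrial DNA, and a recent insertion can be identical to the gene it came from, so that a short read matches both places.

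Only 15 of the 37 genes could be measured. The tables give each gene an effective length, the number of positions at which a 100 nt window can start, and a gene shorter than the window has none. All 22 tRNA genes are 59 to 75 nt long, had an effective length of 0 and were listed at 0 in both libraries. That value says nothing about the level of the tRNAs, and RNA of this size also lay under the size range of the RNA used. The shortest and the longest of them are printed whole to show how much of a window they fill, as read on the plus strand of chrM in mm10 at chrM:11613-11671 (mt-Ts2, a serine tRNA) and chrM:2676-2750 (mt-Tl1, a leucine tRNA), from the GENCODE M21 transcripts.
mt-Ts2: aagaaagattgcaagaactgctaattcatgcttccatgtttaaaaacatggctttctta
mt-Tl1: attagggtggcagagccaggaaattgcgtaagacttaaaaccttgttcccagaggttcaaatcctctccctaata

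Among the 15 measurable genes, the sequences that decide how reads could be assigned lie in a block of nuclear copies on chromosome 1. In a blastn search of the annotated transcripts, 11 nuclear pseudogenes aligned to 9 of the members at 95% identity or more over 100 nt or more. Of these, 7 lay side by side on the minus strand of chromosome 1 at chr1:24611535-24616197, a span of 4663 nt, in the order of their counterparts on chrM. The spacing was kept as well. Gm29216 and Gm28661 were 140 nt apart on chromosome 1, as were their counterparts on chrM, and the next gap was 233 nt in both places. The gap between Gm28438 and Gm10222 was 74 nt on chromosome 1 and 73 nt on chrM. Copies of mt-Atp6 (Gm10925), mt-Co2 (Gm28661), mt-Co3 (Gm28437), mt-Nd4l (Gm10222) and the first 876 nt of mt-Nd4 (Gm28439) aligned at 100% identity. The remaining pair carried 1 substitution each within the aligned stretch, in positions counted from 1 at the 5′ end of the mitochondrial gene and with the mitochondrial base first. It was A1066T between mt-Co1 and Gm29216 and T3C between mt-Nd3 and Gm28438.

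The bases around both substitutions are printed because a read covering one of them can tell the mitochondrial gene from its copy. The substituted base is in capitals, the mitochondrial strand is plus and the copies are read from the minus strand (mm10, GENCODE M21 transcripts). mt-Co1 is shown at chrM:6381-6423 with Gm29216 at chr1:24616155-24616197, where the aligned stretch starts at base 10 of the copy and further differences lie before it, and mt-Nd3 at chrM:9459-9491 with Gm28438 at chr1:24613087-24613119.
mt-Co1: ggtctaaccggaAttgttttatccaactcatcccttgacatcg
Gm29216: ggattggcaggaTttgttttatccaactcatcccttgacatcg
mt-Nd3: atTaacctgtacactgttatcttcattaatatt
Gm28438: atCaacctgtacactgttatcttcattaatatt

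For the copies without a substitution, the annotated ends were the sole difference. The copies of mt-Atp6, mt-Co2 and mt-Nd4l ended 3 nt before the mitochondrial gene and the copy of mt-Co3 ended 1 nt before it. The 3′ ends of mt-Atp6 (chrM:8562-8607, plus strand) and mt-Co3 (chrM:9345-9390, plus strand) are printed with those of Gm10925 (chr1:24613974-24614016, minus strand) and Gm28437 (chr1:24613189-24613233, minus strand). Capitals mark the bases beyond the annotated end of the copy.
mt-Atp6: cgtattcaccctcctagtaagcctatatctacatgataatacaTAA
Gm10925: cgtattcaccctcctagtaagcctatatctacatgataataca
mt-Co3: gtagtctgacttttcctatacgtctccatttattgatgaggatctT
Gm28437: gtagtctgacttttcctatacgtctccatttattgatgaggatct

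Cut into windows of 100 nt, 99.9% of the windows of mt-Co3 also occurred in a nuclear copy, which left 1 window of 685 of its own. The share was 99.5% for mt-Co2 and for mt-Atp6, 98.5% for mt-Nd4l, 97.6% for mt-Nd3, 60.8% for mt-Nd4, 30.8% for mt-Co1 and 3.2% for mt-Nd2. It was 0 for mt-Rnr1, mt-Rnr2, mt-Nd1, mt-Atp8, mt-Nd5, mt-Nd6 and mt-Cytb. mt-Atp8 lies within the stretch that the block covers, but no annotated copy of it was found there. A nuclear piece outside the annotated genes was not searched for, and whether the mitochondrial DNA of these embryos differs from the reference at these bases was not tested.

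The libraries held 38966386 expected counts in replicate 1 and 40419493 in replicate 2, where an expected count is the authors' estimate of the reads of a gene with shared reads divided among the genes they match. The members took 561403 expected counts in replicate 1 and 634051 in replicate 2. TPM is abundance per effective length, scaled to the same sum in each library. For the shortest measurable member, mt-Atp8, 3 counts correspond to 1.22 TPM in replicate 1 and to 1.19 TPM in replicate 2. Of 7 midbrain markers, 6 were at 1 TPM or more in both libraries, led by Meis2 and Otx2, and both hindbrain markers (Hoxa2 and Hoxb2) were under it. The erythroid markers were all detected, and their levels summed to 14896 TPM in replicate 1 against 11697 TPM in replicate 2, so RNA of blood cells was in both pools. The microglial markers summed to 81.0 TPM in replicate 1 and 65.4 TPM in replicate 2.

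All 15 measurable members were at 1 TPM or more in both libraries, and 9 of them were at 1000 TPM or more in both, among 76 such genes in the whole table. Together they took 3.20% of the TPM of Ensembl genes in replicate 1 and 3.50% in replicate 2. Their share of expected counts was lower, at 1.48% in replicate 1 and 1.61% in replicate 2, and counts, unlike TPM, are not divided by length. The nuclear copies took a further 1.76% of TPM in replicate 1 and 1.89% in replicate 2. The median member stood at 1235 TPM in replicate 1 and 1509 TPM in replicate 2, and the median expressed Ensembl gene at 17.1 and 17.0 TPM.

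The highest deposited level was that of mt-Atp6, the proton channel subunit of ATP synthase, with 7479 TPM in replicate 1 and 7155 TPM in replicate 2. Its neighbour mt-Atp8, a small membrane subunit of the same enzyme, had 4875 TPM in replicate 1 and 5476 TPM in replicate 2. Both rank high in the whole table, with mt-Atp6 at place 7 and mt-Atp8 at place 12 by mean TPM. mt-Cytb, the cytochrome b of complex III, had 3138 TPM in replicate 1 and 3430 TPM in replicate 2. Among the subunits of complex IV, mt-Co1, which holds the site where oxygen is reduced, had 2516 TPM in replicate 1 and 2721 TPM in replicate 2. mt-Co2, which takes electrons from cytochrome c, had 1234 TPM in replicate 1 and 1433 TPM in replicate 2. The third, mt-Co3, had 1235 TPM in replicate 1 and 1821 TPM in replicate 2. The values of mt-Co2 and mt-Co3 are those before any count of their nuclear copies is added.

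The 7 members of complex I, all subunits of its membrane arm, reached further down the range than those of the other complexes. mt-Nd1 was the highest of them at 2311 TPM in replicate 1 and 2539 TPM in replicate 2. mt-Nd4 had 1366 TPM in replicate 1 and 1509 TPM in replicate 2, and mt-Nd2 had 836.8 TPM in replicate 1 and 912.6 TPM in replicate 2. As deposited, mt-Nd6, mt-Nd3 and mt-Nd5 formed a low group. mt-Nd6 had 384.0 TPM in replicate 1 and 421.9 TPM in replicate 2. mt-Nd3 had 358.9 TPM in replicate 1 and 394.2 TPM in replicate 2. mt-Nd5 had 321.4 TPM in replicate 1 and 356.6 TPM in replicate 2. The lowest as deposited was mt-Nd4l, at 90.5 TPM in replicate 1 and 150.1 TPM in replicate 2. The values of mt-Nd3 and mt-Nd4l are also those before any count of their nuclear copies is added.

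mt-Nd6 is the only one of the 15 encoded on the minus strand of chrM. mt-Cytb, which follows it on the plus strand, stood at 8.17 times the TPM of mt-Nd6 in replicate 1 and 8.13 times in replicate 2. Use of read strand in the counting is not given in the sources used here. Without it, RNA from the opposite strand over mt-Nd6 cannot be told apart from mt-Nd6 mRNA, and 14 nt at its 3′ end overlap mt-Nd5.

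The rRNA of the large mitochondrial ribosomal subunit, mt-Rnr2, had 3030.0 TPM in replicate 1 and 3463 TPM in replicate 2. That of the small subunit, mt-Rnr1, had 996.8 TPM in replicate 1 and 1085 TPM in replicate 2. The ratio of mt-Rnr2 to mt-Rnr1 was 3.04 in replicate 1 and 3.19 in replicate 2, although a ribosome holds both in equal number. The rRNAs made up 13.4% of the TPM of the members in replicate 1 and 13.8% in replicate 2. Whether rRNA was removed before sequencing is not given in the sources used here, and its effect on these levels was not tested.

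Ordered by mean level, 9 of the 14 pairs of neighbours were apart, in that all values of the higher gene lay above all values of the lower one. In the other 5 the libraries overlapped. These were mt-Cytb with mt-Rnr2, mt-Co1 with mt-Nd1, mt-Co3 with mt-Nd4, mt-Nd4 with mt-Co2 and mt-Nd6 with mt-Nd3. The members spanned 61.0-fold from mt-Atp6 to mt-Nd4l, at 7317 ± 229 TPM and 120 ± 42.1 TPM (SD, n = 2).

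**Figure D1:**
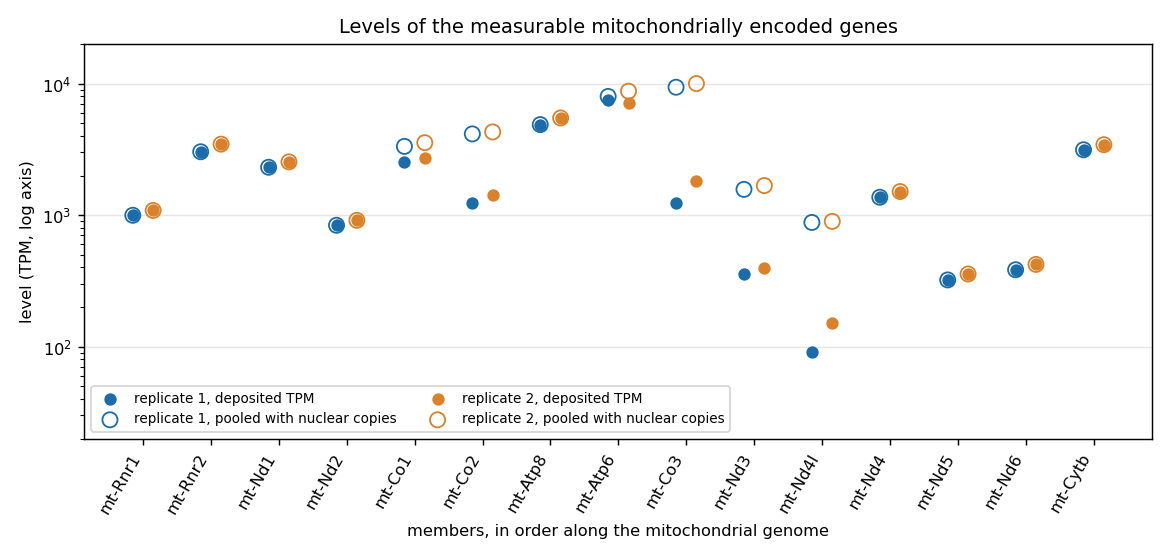
Level of the 15 measurable mitochondrially encoded genes in each library, in TPM on a log axis, in genome order. Filled points are the deposited values and open circles the values after the counts of the nuclear copies were added, which moves mt-Co3 to 9381 and 10003 TPM and mt-Nd4l to 879.2 and 895.8 TPM in replicates 1 and 2 and leaves the members without a copy in place.

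For the members that share nearly all windows with a copy, the deposited counts were split between both places in ways that sequence sharing alone did not set. Of the counts on mt-Co3 and Gm28437 together, Gm28437 received 86.8% in replicate 1 and 81.8% in replicate 2. Gm10222 received 89.7% and 83.2% of the counts shared with mt-Nd4l in replicates 1 and 2, and Gm28438 received 77.1% and 76.5% of those shared with mt-Nd3. Gm28661 with a minor copy on chromosome 2, Gm13341, received 70.2% of the counts shared with mt-Co2 in replicate 1 and 66.6% in replicate 2. The opposite held for mt-Atp6, whose copy Gm10925 received 6.32% in replicate 1 and 18.3% in replicate 2. Gm28439, identical to the first 876 nt of mt-Nd4, received 0.00735% of the counts shared with mt-Nd4 in replicate 1 and 0.0266% in replicate 2. Unlike the other identical pairs, mt-Nd4 reaches 502 nt past the end of its copy.

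The copies themselves would stand among the most abundant genes of the table if their deposited values were read as nuclear RNA. Gm28437 (ENSMUSG00000101111.1) had 8158 TPM in replicate 1 and 8194 TPM in replicate 2. Gm29216 (ENSMUSG00000101249.1) had 2991 TPM in replicate 1 and 3066 TPM in replicate 2, and Gm28661 (ENSMUSG00000102070.1) had 2924 TPM in replicate 1 and 2870.0 TPM in replicate 2. Gm28438 (ENSMUSG00000101939.1) had 1225 TPM in replicate 1 and 1299 TPM in replicate 2. Gm10222 (ENSMUSG00000067736.2) had 800.8 TPM in replicate 1 and 757.2 TPM in replicate 2. Gm10925 (ENSMUSG00000100862.1) had 506.9 TPM in replicate 1 and 1610.0 TPM in replicate 2. Of the 4 copies on other chromosomes, Gm13340 and Gm13341 on chromosome 2 reached 10 counts in a library. Gm13340, at 97.6% identity to mt-Co1 over its whole length, had 35.2 counts in replicate 1 and 35.0 counts in replicate 2. This full-length copy differs from mt-Co1 at 37 bases and received few counts. Of the 7 copies on chromosome 1, all but Gm28439 received 3560.45 counts or more in each library. Which of these counts came from RNA of chromosome 1 was not tested.

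The tables give a second estimate for each gene, a posterior mean count with a posterior SD, which measures how far the division of shared reads could move. For 10 of the 15 members the posterior SD was 10% of the posterior mean or less in both libraries, and for 7 of these it was 0. The other 5 were mt-Co2, mt-Atp6, mt-Co3, mt-Nd3 and mt-Nd4l, the same 5 that share 97.6% of their windows or more. mt-Co3 had a posterior mean of 51778 ± 37140 counts in replicate 1 and 59999 ± 37451 counts in replicate 2 (posterior SD), against expected counts of 19767 and 30082. mt-Co2 had 27483 ± 10067 counts in replicate 1 and 28882 ± 9636 in replicate 2, against expected counts of 16861 and 20211. For mt-Atp6 the posterior mean was the lower of the 2 estimates, at 86994 ± 13034 counts in replicate 1 and 92627 ± 14695 in replicate 2, against expected counts of 101670 and 100420. The estimates of mt-Nd4l were 558 ± 193 counts in replicate 1 and 752 ± 203 counts in replicate 2, against 419 and 717 expected counts. Those of mt-Nd3 were 2169 ± 384 counts in replicate 1 and 2285 ± 273 counts in replicate 2, close to its expected counts of 2087 and 2367.

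The posterior mean departed by over 10% from the expected count in either library for 4 members (mt-Co2, mt-Atp6, mt-Co3 and mt-Nd4l), and for 288 of the 18269 genes whose mean count was at least 10. In replicate 2 alone it did so for 2 members, mt-Co2 and mt-Co3. The ratio of posterior mean to expected count was 2.62 and 1.99 for mt-Co3 in replicates 1 and 2, and 1.63 and 1.43 for mt-Co2. It was 0.856 and 0.922 for mt-Atp6 in replicates 1 and 2. In the authors' deposited credibility bounds, whose level is not given in the sources used here, mt-Co3 ran from 835.4 to 7431 TPM in replicate 1 and from 1185 to 7302 TPM in replicate 2. mt-Co1 was far less uncertain by this measure. Its posterior SD was 0.178% of the mean in replicate 1 and 0.168% in replicate 2, with 1000 windows of its own. Its copies still received 24.4% of the counts on mt-Co1 and its copies in replicate 1 and 23.5% in replicate 2. The posterior SD does not measure whether those counts came from mitochondrial RNA, which was not tested.

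**Figure D2:**
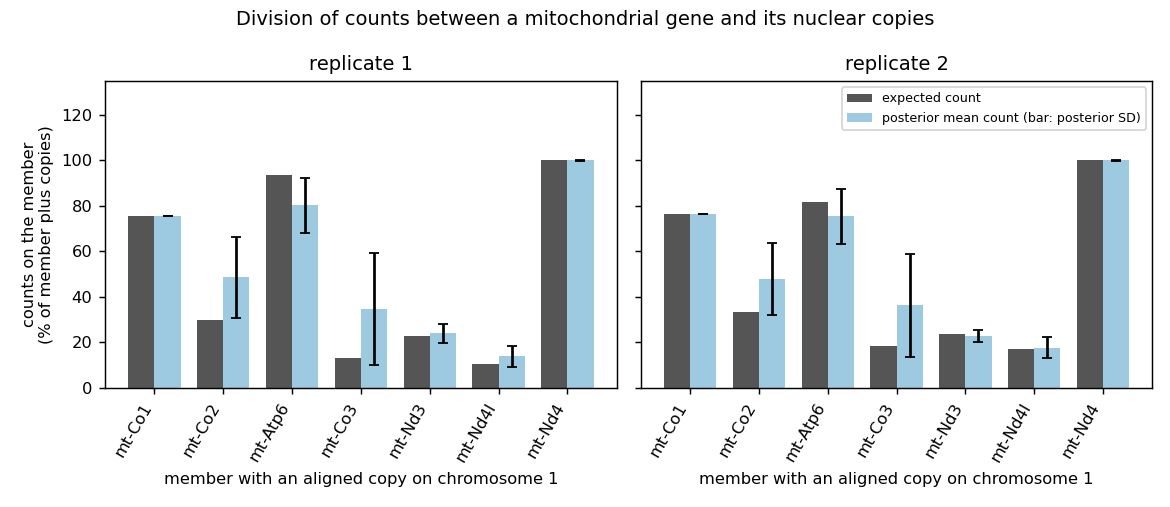
Counts on each member as a percent of the counts on the member plus its nuclear copies, for the 7 members with a copy in the chromosome 1 block, in replicate 1 (left) and replicate 2 (right). Dark bars are expected counts and light bars posterior mean counts with their posterior SD. The SD of mt-Co3 spans 24.7 percentage points either way in replicate 1 and 22.7 in replicate 2, and the bars of mt-Co1 and mt-Nd4 have almost none.

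Adding each copy's counts to its member removed the difference between the estimates, since both estimates summed to the same total. The pooled count of mt-Co3 with Gm28437 was 150101 in replicate 1 and 165229 in replicate 2 by either estimate. Divided by the effective length of the member, the pooled level of mt-Co3 came to 9381 TPM in replicate 1 against 10003 TPM in replicate 2, the highest of the 15. mt-Atp6 came next, with a pooled 7983 TPM in replicate 1 against 8757 TPM in replicate 2. mt-Co2 reached 4143 TPM in replicate 1 against 4289 TPM in replicate 2 when pooled, and mt-Co1 reached 3330.0 TPM in replicate 1 against 3555 TPM in replicate 2. All of these are subunits of complexes IV and V. Pooled mt-Nd3 reached 1569 TPM in replicate 1 against 1677 TPM in replicate 2, and pooled mt-Nd4l 879.2 TPM in replicate 1 against 895.8 TPM in replicate 2. A pooled value is the level the gene would have if all reads on its copies were mitochondrial, which was not tested. In the pooled order mt-Co3 moved from place 7 to place 1 and mt-Nd4l from place 15 to place 12. The spread of mean pooled levels was 28.6-fold from mt-Co3 to mt-Nd5, and 11 of 14 pairs of neighbours were apart.

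In 2 places adjoining mitochondrial genes are known to share 1 mature mRNA. mt-Atp8 and mt-Atp6 overlap by 43 nt and are read from a single mRNA, and so are mt-Nd4l and mt-Nd4, which overlap by 7 nt. The start of mt-Atp6 is printed below from chrM:7927-7969 on the plus strand, which is the stretch it shares with the end of mt-Atp8, with the first codon of mt-Atp6 in capitals.
mt-Atp6: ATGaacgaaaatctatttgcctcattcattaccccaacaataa
The level of mt-Nd4 was 15.1 times that of mt-Nd4l in replicate 1 and 10.1 times in replicate 2 as deposited, and 1.56 and 1.69 times after pooling. The level of mt-Atp6 was 1.53 times that of mt-Atp8 in replicate 1 and 1.31 times in replicate 2 as deposited, and 1.64 and 1.60 times after pooling. The levels of mt-Nd4 and mt-Nd4l thus lay closer together after pooling. The mt-Atp6 to mt-Atp8 ratio was not closer to 1 after pooling, but it differed less between the libraries. The level of mt-Atp8 rests on an effective length of 105 positions for a gene of 204 nt, and with the annotated length in its place its mean was 2958 TPM instead of 5176 ± 425 TPM (SD, n = 2).

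Between the pools, 14 of the 15 members were lower in replicate 1 than in replicate 2 when expected counts were scaled by TMM library sizes, mt-Atp6 being the exception. The median log2 ratio of replicate 1 over replicate 2 was -0.14 for the members and 0.00 for all 18269 genes, of which 49.7% were lower in replicate 1. One member, mt-Nd4l, was past 1.5-fold, or 1 of 15, where 8.17% of all genes were past it. With 1 library per pool no test of the pools was possible, and the 95% intervals given here cover counting error only, since PCR copies cannot be told from separate molecules. In bulk tissue, fewer cells rich in mitochondria and less mitochondrial RNA per cell cannot be told apart.

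The 10 members with a well determined count had nearly the same ratio. Their log2 ratios lay between -0.19 and -0.11 with an SD of 0.024, while the SD was 0.099 over the 1767 genes at a mean of 100 TPM or more. These members come from shared precursors and are not independent points. mt-Rnr2 was at 0.875 of replicate 2 (0.867 to 0.882), and mt-Rnr1 at 0.918 (0.901 to 0.936). mt-Cytb was at 0.914 (0.906 to 0.923) and mt-Nd1 at 0.910 (0.899 to 0.921). mt-Nd6, from the other strand, was at 0.910 (0.871 to 0.951). Each of these intervals lay below 1 under TMM scaling. When scaled by spike-in counts, the log2 ratios of the 10 members were smaller, from -0.107 for mt-Rnr2 to -0.028 for mt-Co1. Intervals were not computed under spike-in scaling, so whether each would lie below 1 was not tested. The median of all genes was then 0.087. Over the same libraries under TMM scaling, the erythroid markers had a median log2 ratio of 0.36. Of these, 7 of 8 were higher in replicate 1 and Hbb-y, an embryonic globin, was lower. The microglial markers had a median log2 ratio of 0.16. The part of these cells in the mitochondrial difference was not tested.

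The 5 members with an uncertain division scattered more, with an SD of 0.32. mt-Nd4l was at 0.603 of replicate 2 (0.533 to 0.681), from 419 expected counts in replicate 1 and 717 in replicate 2. mt-Co3 was at 0.678 (0.666 to 0.690), with 19767 counts in replicate 1 and 30082 in replicate 2. mt-Atp6 was at 1.045 (1.036 to 1.054), while its copy Gm10925 was at 0.315 (0.306 to 0.323), with 6855 counts in replicate 1 and 22485 in replicate 2. Gm10925 was the only copy past 1.5-fold whose mean count was at least 10. The intervals do not cover the division of shared reads between a member and its copy. With posterior mean counts instead, the log2 ratio moved from -0.56 to -0.168 for mt-Co3 and from -0.729 to -0.385 for mt-Nd4l. It was then -0.046 for mt-Atp6, -0.027 for mt-Co2 and -0.03 for mt-Nd3.

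Pooled with their copies, these 5 members had log2 ratios with an SD of 0.042. mt-Atp6, mt-Co3 and mt-Nd4l came nearer to the median of the 10 well determined members, and mt-Co2 and mt-Nd3 did not. After pooling, mt-Atp6 lay within the range of those 10 as deposited, and the other 4 lay between that range and 1. mt-Co1, among those 10, also has copies, and pooling moved its log2 ratio from -0.114 to -0.095. With mt-Co1 pooled as well, mt-Nd3 at -0.097 lay within the range, and mt-Co3 at -0.093 lay just outside it. The pooled ratio was 0.911 (0.904 to 0.919) for mt-Atp6, 0.937 (0.931 to 0.944) for mt-Co3 and 0.966 (0.955 to 0.977) for mt-Co2. It was 0.935 (0.909 to 0.962) for mt-Nd3 and 0.981 (0.940 to 1.02) for mt-Nd4l, whose interval held 1. All 15 pooled members were lower in replicate 1 and 0 were past 1.5-fold. The pooled log2 ratios of the 15 had a median of -0.13 and an SD of 0.042.

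**Figure D3:**
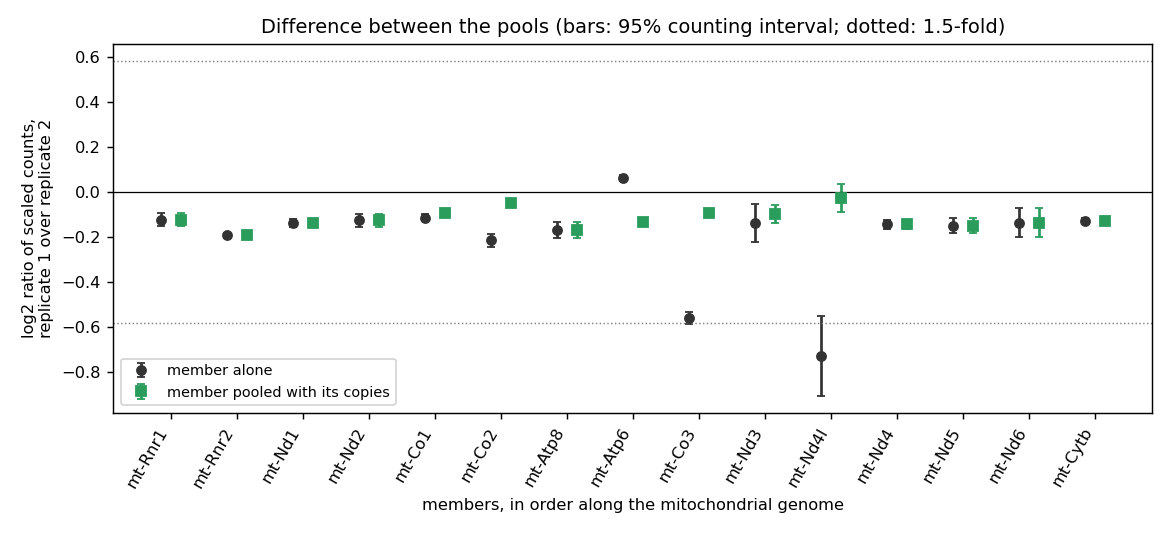
Log2 ratio of scaled counts, replicate 1 over replicate 2, for each member alone (circles) and pooled with its nuclear copies (squares), with 95% counting intervals. Dotted lines mark 1.5-fold. From expected counts, mt-Co3 and mt-Nd4l stand apart when not pooled, and after pooling all 15 lie between -0.19 and -0.03. The intervals do not cover the division of shared reads.

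In each of the 4 complexes with subunits from both genomes, the median mitochondrial subunit RNA was more abundant than the median nuclear one. For complex V the mitochondrial subunits had a median of 6177 and 6316 TPM in replicates 1 and 2, against 512 and 486 TPM for 15 nuclear subunits. Both mitochondrial subunits lay above the highest nuclear one, Atp5b, the catalytic beta subunit, at 1687 ± 21.2 TPM (SD, n = 2). For complex III, mt-Cytb had 8.40 times the median of 9 nuclear subunits in replicate 1 and 9.50 times in replicate 2. The highest of these nuclear subunits were Uqcrq at 527 ± 0.714 TPM, Uqcr11 at 495 ± 31.1 TPM and Uqcr10 at 456 ± 4.77 TPM (SD, n = 2).

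For complexes IV and I the size of the gap depended on the copies. The median of mt-Co1, mt-Co2 and mt-Co3 was 2.10 times that of 11 nuclear subunits in replicate 1 and 2.91 times in replicate 2, and 7.05 and 6.84 times after pooling. Cox6b1, Cox6a1 and Cox4i1 led the nuclear subunits of complex IV, with Cox6b1 at 1077 ± 5.56 TPM (SD, n = 2). For complex I the median of 7 mitochondrial subunits was 1.53 times that of 36 nuclear ones in replicate 1 and 1.70 times in replicate 2, and 3.51 and 3.67 times after pooling. The mitochondrial and nuclear sets of complex I overlapped, since Ndufa1, Ndufc1 and Ndufb8 were above 500 TPM on average and mt-Nd3, mt-Nd5, mt-Nd6 and mt-Nd4l as deposited were below it. Complex II has no mitochondrial subunit, and its 4 genes had a median of 219 TPM in replicate 1 and 213 TPM in replicate 2. None of the nuclear subunits of complexes I to V was past 1.5-fold between the pools, and their median log2 ratios lay between 0.00 and 0.05. Of all genes with a mean count of at least 10, 8.17% were past that fold, with an SD of log2 ratios of 0.468. Abundant genes varied less, with an SD of 0.099 at a mean of 100 TPM or more.

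**Figure D4:**
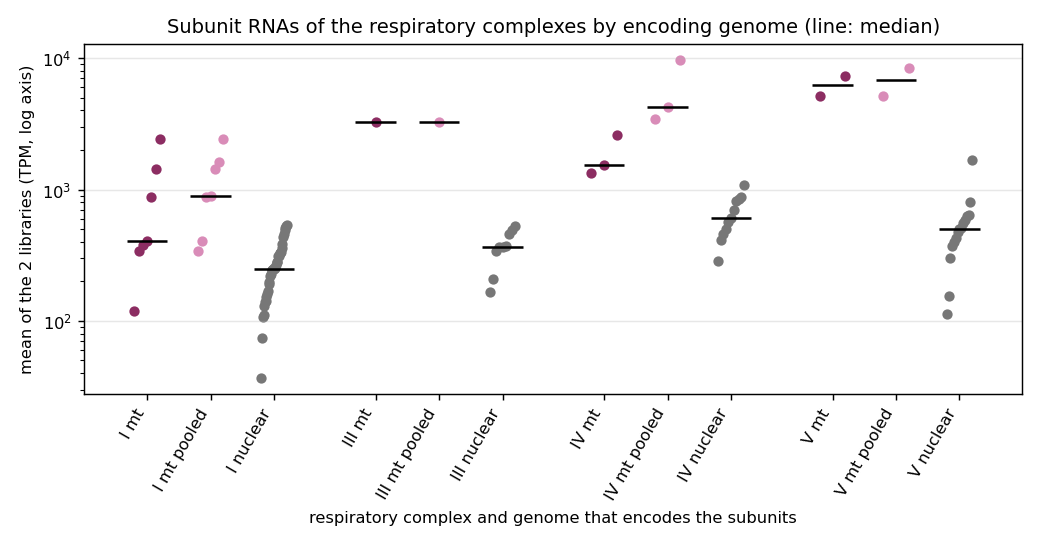
Mean TPM of the 2 libraries (log axis) for each subunit of respiratory complexes I, III, IV and V, split by the genome that encodes it, with mitochondrial subunits as deposited, the same pooled with their nuclear copies, and nuclear subunits. Horizontal lines are medians, and both mitochondrial subunits of complex V lie above Atp5b at 1687 TPM.

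The median level of the nuclear genes that make or process mitochondrial RNA was below the level of every measurable member in both libraries. All 10 genes of the mitochondrial transcription list were at 1 TPM or more in both libraries, with a median of 19.0 TPM in replicate 1 and 20.5 TPM in replicate 2. The highest were Mterf3 at 57.2 ± 2.19 TPM, the mitochondrial RNA polymerase Polrmt at 41.1 ± 1.53 TPM and the DNA packaging and promoter factor Tfam at 37.6 ± 5.58 TPM (SD, n = 2). All 23 genes for processing, polyadenylation and decay of mitochondrial RNA were at 1 TPM or more as well, with a median of 23.8 TPM in replicate 1 and 25.5 TPM in replicate 2. They were led by Slirp, which stabilizes mitochondrial mRNAs together with Lrpprc, at 184 ± 5.28 TPM, then by Fastk at 82.6 ± 4.89 TPM and Hsd17b10, a subunit of mitochondrial RNase P, at 82.2 ± 6.13 TPM (SD, n = 2). The median log2 ratio was -0.04 for the first list and -0.03 for the second. Between the pools 0 genes of either were past 1.5-fold, where 8.17% of all genes with a mean count of at least 10 were. That share was not matched for the abundance of the listed genes.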

How the data were processed

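The authors deposited 1 gene table per library, which holds, per the file headers, expected counts, TPM, and posterior mean counts with their SD and TPM bounds. The build was mm10 and the annotation GENCODE M4, per the notes deposited beside the tables. The sources used here do not name the aligner or the counting tool. Biotypes, coordinates and transcript sequences came from GENCODE M21 on the same build, and 42462 of 43346 Ensembl IDs had a symbol. Spike-ins (2.30% and 2.42% of counts in replicates 1 and 2), and rows with only a number as ID or phiX (5.49e-05% and 2.97e-05%), were left out of shares and library sizes.

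Nuclear copies were found with blastn 2.17.0. Pool ratios used rounded expected counts of genes with a mean of 10 or more, TMM sizes from edgeR 4.0.16 in R 4.3.3 and exact conditional binomial 95% intervals. Log2 ratios added 0.5 to each count. DESeq2 1.42.0 size factors, other scalings, folds, lengths and estimates were alternatives. A gene was called past the fold at 1.5-fold either way. The interval calculation was tested on simulated data with counting noise only. That simulation held no division of shared reads and no spread between pools beyond the set ratios, so it does not cover those errors. Python 3.11.15, pandas 2.3.3 and scipy 1.17.1 were used for the rest.

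All measurable members were named, all copies with 10 or more counts in a library were named or given in totals, and of each nuclear list the 3 highest and any past 1.5-fold. The members and lists were chosen with earlier results of these data known. Levels are means ± SD of the 2 pools, whose spread may hold technical as well as biological differences.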

Additional observations from a re-analysis of the deposited data

How the results depend on the processing

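The members' share of Ensembl TPM, 3.35 ± 0.212% (SD, n = 2), was 5.17% with the nuclear copies added, 2.90% without the 2 rRNA genes, 3.08% with annotated in place of effective length and 1.54% as a share of expected counts. With either library alone it was 3.20% or 3.50%. The count past 1.5-fold, 1 with expected counts, was 0 with posterior mean counts and 0 with copies added. It was 2 at the lower of the other folds tried, where 18.4% of all genes passed, and 0 at 2-fold, where 2.69% passed. The number whose posterior mean departed by over 10% was 4, 2 without replicate 1 and 4 without replicate 2. The median log2 ratio of the members stayed negative under each scaling tried. With spike-in counts it was -0.05, where the median of all genes was 0.09, and 14 of 15 members were again lower in replicate 1. Posterior mean counts put mt-Atp6 on the lower side too, so 15 of 15. All 15 members stayed at 1 TPM or more at each setting tried. No paired analysis was possible because each pool has a single library and the labels give 1 group. With 1 library per pool, leaving one out gives no pool ratio. What depth limits was not tested, since no setting changed it.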

Other observations

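Other nuclear genes that maintain the mitochondrial genome and its translation were all at 1 TPM or more in both libraries. The 77 genes of the mitochondrial ribosome had a median of 72.2 TPM in replicate 1 and 69.2 TPM in replicate 2, led by Mrps21 at 217 ± 2.94 TPM, Mrpl20 at 200.0 ± 2.82 TPM and Mrpl30 at 186 ± 2.63 TPM (SD, n = 2). The 11 genes of mitochondrial DNA replication and maintenance had a median of 13.6 TPM in replicate 1 and 14.9 TPM in replicate 2. Ssbp1, which binds single-stranded mitochondrial DNA, was the highest at 84.3 ± 0.396 TPM, before the nucleoside kinases Dguok at 58.0 ± 1.63 TPM and Tk2 at 37.5 ± 0.339 TPM (SD, n = 2). The 15 genes that modify mitochondrial tRNA and rRNA had a median of 18.9 TPM in replicate 1 and 18.7 TPM in replicate 2, led by Trmu, Trnt1 and Trub2. None of these genes was past 1.5-fold between the pools, where 8.17% of all genes with a mean count of at least 10 were. That share was not matched for abundance, and abundant genes varied less. The SD of log2 ratios was 0.468 over all these genes and 0.099 at a mean of 100 TPM or more. The median log2 ratios of these lists were 0.03, 0.02 and 0.01. The mitochondrial tRNAs that the last list acts on have no measured level in these libraries.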
